A study of Mus musculus with 2 samples.

Results

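The mitotic cells described here were 2136 of the 21361 cells kept from 1 single-cell library, the 10% of cells with the highest level of 10 late-mitosis genes. For each cell a score, M, gave the UMIs of Cdc20, Ccnb1, Plk1, Aurka, Cenpa, Cenpf, Ube2c, Hmmr, Tpx2 and Cenpe per 10000 UMIs of the cell. A UMI, or unique molecular identifier, stands for 1 captured RNA molecule. The 10 genes of M are called the rule genes below. The cells kept had at least 2000 UMIs, at least 1000 detected genes and at most 15% mitochondrial UMIs. The other 19225 cells served as the comparison. M is a continuous score read from RNA, so its upper end is a range of cells and not a count of cells seen to divide.

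The cells were of KPCY 6419c5, a mouse pancreatic ductal adenocarcinoma line. The cells carried the lineage-tracing system BASELINE, in which an adenine base editor built on Cas12a, an enzyme directed by a guide RNA, makes A-to-G changes at its sites. Isolated clones 76 and 84 were mixed in equal parts after 19 days of editing and loaded as 1 droplet library that captures poly-A RNA. A second sample, with clones 1, 32, 33, 52 and 76, was not analysed here. All cells used shared the line, the editor and the editing time, and no unedited cells were compared. No cell carried a clone label used here, so the data are 1 sample, cells are not replicates, and no test between groups was possible. Levels are CPM, the UMIs of a gene summed over a group of cells per 1000000 UMIs of that group. Intervals are at 95%, exact Poisson for sums and exact Clopper-Pearson for shares, and cover counting error only.

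The library held 22178 barcodes and 116505698 UMIs, of which the filter removed 817 barcodes. The mitotic cells held 12629108 UMIs and the other cells 102936550. The mitotic cells had a median of 5693 UMIs and 2430 genes, against 4845 UMIs and 2176 genes in the other cells.

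Entry into mitosis is driven by the kinase Cdk1 with B-type cyclins. The spindle then attaches to kinetochores, the protein plates on centromeres, and a checkpoint holds the cell until every chromosome is attached. The anaphase-promoting complex with its activator Cdc20 then marks securin and cyclin B for destruction, the chromosomes part, and cytokinesis splits the cell. Most transcripts for these steps are made in G2 and are carried into mitosis, so RNA alone places a cell in G2 or mitosis without telling the phases apart.

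The rule genes chose the cells, so their levels are a description. Ube2c, the ubiquitin-conjugating enzyme of the anaphase-promoting complex, had the highest level, 943 CPM in the mitotic cells against 223 CPM in the others. Cenpf and Cenpe, a kinetochore protein and a kinetochore motor, followed with 816 against 179 CPM and 812 against 224 CPM. Tpx2, which activates Aurora A at the spindle, had 379 against 128 CPM. Hmmr, a spindle-pole protein, had 366 against 116 CPM, and Cenpa, the histone H3 variant of centromeres, had 351 against 120 CPM. The kinase Plk1 had 236 against 61.9 CPM. Cdc20 had 206 against 63.0 CPM, Aurka, or Aurora A kinase, had 171 against 40.9 CPM, and Ccnb1, or cyclin B1, had 161 against 46.5 CPM. The ratios ran from 2.92-fold for Cenpa to 4.55-fold for Cenpf. These 10 genes gave 4441 CPM in sum in the mitotic cells and 1204 CPM in the others.

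In single cells these transcripts were sparse. A mitotic cell held a median of 25 rule-gene UMIs, from 8 to 112, and another cell a median of 4, from 0 to 51. Ube2c had a median of 5 UMIs in the mitotic cells, Cenpf and Cenpe had 4, and Cenpa, Hmmr and Tpx2 had 2. Cdc20, Ccnb1, Plk1 and Aurka had a median of 1. No Cdc20 UMI was seen in 31.2% of the mitotic cells and in 74.4% of the others. Cenpf was missing in 1.87% of the mitotic cells and in 55.9% of the others. The counts of the 2 groups overlapped, since M sets the sum against the cell's total UMIs, and each of the 10 genes was missing in some mitotic cells.

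The limit cut a continuous range. The lowest M values inside were 35.1741, 35.1716 and 35.1684, and the highest outside were 35.1673, 35.1666 and 35.1648. The highest M was 105.402, from 40 rule-gene UMIs among 3795. In all, 1252 cells (5.86%) had M within 10% of the limit, and 572 of them were mitotic cells. The median M was 42.6 in the mitotic cells and 8.70 in the others. M was 0 in 2580 cells (12.1%). The number of cells was highest at the lowest M and showed no step at the limit, as the plot of M and of the share by depth shows.

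**Figure D1:**
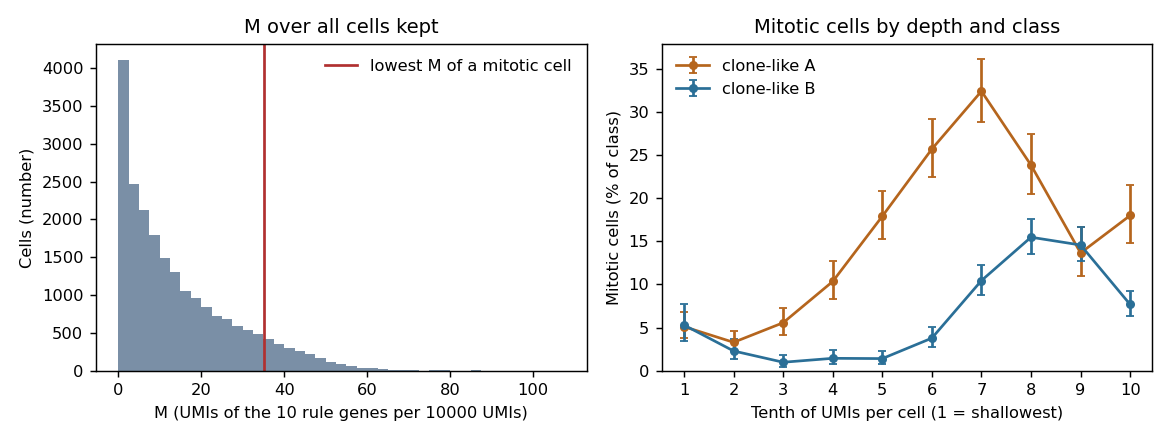
Left, the number of cells (vertical axis) by M in UMIs of the 10 rule genes per 10000 UMIs; the red line is the lowest M of a mitotic cell. Right, the percent of mitotic cells (vertical axis) in 10 equal groups by UMIs per cell, for the marker-defined classes A and B described further on, with exact 95% intervals as bars; class A is highest in group 7 at 32.4% and class B in group 8 at 15.5%.

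Each rule gene was also read in cells that it did not choose. For this, cells were ranked again by the other 9 genes, and the gene left out was compared between the new top 10% and the rest. All 10 genes were then at least 2-fold higher. Aurka had the highest log2 ratio left out, 1.81 (interval 1.74 to 1.89), and Cenpa the lowest, 1.28 (1.23 to 1.33). Cdc20 had 1.47, Ccnb1 1.55, Plk1 1.69 and Cenpf 1.81. Leaving out Ube2c kept 84.2% of the mitotic cells, and leaving out Ccnb1 kept 95.3%. When cells were chosen on a random part of their UMIs and the genes read in the rest, 76.0% of the cells chosen were mitotic cells by the full rule, and the log2 ratios of the rule genes ran from 1.25 to 1.82.

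**Figure D2:**
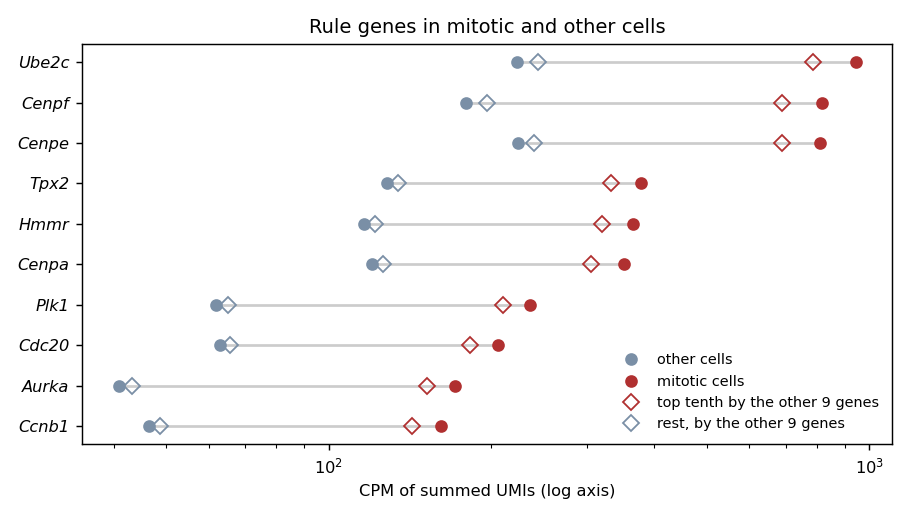
CPM of summed UMIs on a log axis for the 10 rule genes; filled points are mitotic cells (red) and other cells (grey-blue), open diamonds the groups made again from the other 9 genes. For each gene the red diamond lies to the left of the red point and at least 2-fold above the grey-blue diamond.

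Outside the rule genes, 8226 genes had at least 10 CPM over all cells together and were compared. In the mitotic cells 64 of them (0.778%) were at least 2-fold higher and 33 (0.401%) at least 2-fold lower. The median log2 ratio over all genes compared was 0.00. Of 155 genes in 8 lists of mitotic genes, 150 passed the 10 CPM filter. Of these, 41 were at least 2-fold higher, 0 were at least 2-fold lower, 133 had a log2 ratio above 0, and the median was 0.67. The mitotic cells were deeper than the others and held more class A cells, and the part of both in these counts was not tested. With the other cells weighted to the same mix of depth and class, 33 genes were at least 2-fold higher, 20 of them in the mitotic lists, and 23 were at least 2-fold lower.

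Spindle and centrosome genes stood highest among the lists. Of 29 that passed the filter, 17 were at least 2-fold higher and 27 had a ratio above 0, with a median log2 ratio of 1.08. Fam83d, which brings casein kinase to the spindle, had 46.0 CPM in the mitotic cells and 11.5 CPM in the others, a log2 ratio of 2.00 (1.85 to 2.14). Psrc1, a spindle protein that binds microtubules, had 40.1 against 10.1 CPM (1.99), and Nusap1, which bundles microtubules near chromosomes, had 255 against 66.4 CPM (1.94). Prc1 crosslinks the antiparallel microtubules of the central spindle and had 578 against 175 CPM (1.73). Arl6ip1, which shapes the endoplasmic reticulum and is no spindle protein, stands in this list and had 720 against 231 CPM (1.64). Ckap5, a microtubule polymerase, had 226 against 111 CPM (1.02), and the motor gene Kif11, which pushes the spindle poles apart, had 157 against 74.0 CPM (1.08). Kif2a, a motor that takes microtubules apart, had the lowest ratio of the list, -0.21.

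The share of cells with a UMI gave the same order as the levels for the spindle genes examined. Prc1 was detected in 91.9% of the mitotic cells (90.7 to 93.1), in 43.4% of the others and in 11.7% of the cells with M of 0, whose median depth was 4066.5 UMIs. After each cell was thinned to 3000 UMIs these shares were 79.5%, 31.9% and 8.76%. Nusap1 was detected in 73.2%, 23.7% and 3.02% of these cells, and in 52.2%, 14.9% and 2.38% after thinning. Thinning left out 70 mitotic cells, 932 others and 308 cells with M of 0 that were shallower. Cells with M of 0 thus gave a low share for both genes.

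Cytokinesis genes had a median log2 ratio of 1.00, and 7 of 15 were at least 2-fold higher. Pimreg, a mitotic regulator that binds the clathrin assembly protein Picalm, led the list with 46.6 against 15.6 CPM (1.58). The midzone motors Kif20b and Kif23 had 250 against 106 CPM (1.24) and 174 against 82.1 CPM (1.08). Ect2, the exchange factor that switches on RhoA at the cleavage furrow, had 252 against 147 CPM (0.78), and Anln, which ties the contractile ring to the membrane, had 328 against 190 CPM (0.79). Rhoa itself, which is expressed in all phases, had 245 against 272 CPM (-0.15). The chromosomal passenger complex brings Aurora B to centromeres and then to the midzone. Its kinase Aurkb had 67.1 against 29.1 CPM (1.21), its scaffold Incenp 161 against 78.8 CPM (1.03), Cdca8 219 against 117 CPM (0.90) and Birc5, or survivin, 377 against 224 CPM (0.75). All 4 subunits were higher, 2 of them at least 2-fold.

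Among mitotic cyclins, kinases and phosphatases, 5 of 24 genes were at least 2-fold higher and the median log2 ratio was 0.54. Ccnf, the cyclin-like F-box protein, had 82.9 against 27.8 CPM (1.58). The phosphatases Cdc25b and Cdc25c, which activate Cdk1, had 59.4 against 22.2 CPM (1.42) and 31.1 against 13.8 CPM (1.18). Their relative Cdc25a, which also acts at the start of S phase, had 22.7 against 30.2 CPM (-0.41), the lowest ratio of the list. Cdk1 had 370 against 173 CPM (1.09). Cyclin A2 (Ccna2) had 241 against 126 CPM (0.94) and cyclin B2 (Ccnb2) 117 against 66.4 CPM (0.81), both short of 2-fold. Cks1b, a small Cdk-binding subunit, had 475 against 356 CPM (0.42), and Arpp19, which inhibits the phosphatase PP2A in mitosis, had 207 against 236 CPM (-0.20).

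Spindle checkpoint genes had a median log2 ratio of 0.47, and 2 of 12 were at least 2-fold higher. Bub1b, the checkpoint protein BubR1, had 95.7 against 39.7 CPM (1.27), and Bub3 had 224 against 122 CPM (0.88). Mad2l1, which binds and blocks Cdc20, had 84.0 against 61.5 CPM (0.45), and Mad1l1, its anchor, had 74.5 against 71.1 CPM (0.07). Kntc1, of the complex that brings dynein to kinetochores, had the lowest ratio of the list, -0.05. Of the 33 centromere and kinetochore genes, 30 passed the filter, 5 were at least 2-fold higher and the median was 0.45. Sgo2a, which protects cohesin at centromeres, led with 163 against 59.6 CPM (1.45), and Knl1, the platform for Bub1, had 198 against 81.0 CPM (1.29). The outer kinetochore gene Ndc80 had 117 against 59.4 CPM (0.98). Zwint and Cenpx were nearly level, at 122 against 125 CPM (-0.03) and 105 against 105 CPM (0.00). Pmf1, a subunit of the Mis12 complex, had 126 against 108 CPM (0.22). The list ran from Cenpk, a subunit of the inner kinetochore, at -0.24 to Sgo2a at 1.45, with 2 of 30 genes below 0.

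Of 16 genes for condensins, topoisomerase and chromosome-bound proteins, 1 was at least 2-fold higher and the median was 0.38. That gene was Top2a, the topoisomerase that untangles sister chromatids, with 1132 against 539 CPM (1.07). Mki67, which coats mitotic chromosomes, had 597 against 313 CPM (0.93) and Hmgb2, a chromatin-bending protein, 1725 against 1075 CPM (0.68). H2az1, a histone variant gene, and Hmgb1 were the other abundant genes of the list, with ratios of 0.03 and 0.15. The condensin I subunit Ncapg had a log2 ratio of 0.84 and the condensin II subunit Ncapg2 one of -0.68, the lowest of the list.

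The anaphase-promoting complex and its partners had the lowest median of the 8 mitotic lists, with 2 of 20 genes at least 2-fold higher and a median log2 ratio of 0.11. Neither is a core subunit. Fzr1, the activator that follows Cdc20 at mitotic exit, had 56.3 against 23.4 CPM (1.27), and Espl1, or separase, the protease that cuts cohesin, had 32.0 against 14.2 CPM (1.17). The core subunits Anapc11 and Anapc16 had 127 against 127 CPM (0.01) and 91.6 against 99.9 CPM (-0.12). Fbxo5, or Emi1, an inhibitor of the complex, had 106 against 95.8 CPM (0.15). Pttg1, or securin, had 37.6 against 33.8 CPM (0.15). Gmnn, or geminin, which blocks re-licensing of DNA, had 68.7 against 100 CPM (-0.54).

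The lists of tubulins, of the nuclear envelope and of cohesin held no gene at least 2-fold higher or lower. Tubulins and stathmin had a median log2 ratio of 0.30 over 11 genes, led by Tuba1c with 289 against 147 CPM (0.98) and Tubb4b with 560 against 324 CPM (0.79). Tubb5 and Tuba1b, the most abundant, had ratios of 0.40 and 0.41, and Tuba1a had the lowest, -0.28. Tubulin genes are near-identical in sequence, so the counting could split reads between them. Nuclear lamina and envelope genes had a median of 0.13 over 12 genes, with Lmna, or lamin A/C, at 697 against 836 CPM (-0.26) as the lowest and Lemd2 at 20.6 against 15.9 CPM (0.38) as the highest. Banf1 and Tmpo, the other abundant genes of this list, had ratios of -0.14 and 0.30. Cohesin genes had a median of 0.07 over 12 genes, from Esco1 at -0.41 to Rad21 at 0.51. The ring subunits Smc3, Smc1a and Stag2, the most abundant, had ratios of -0.36, 0.24 and 0.02.

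**Figure D3:**
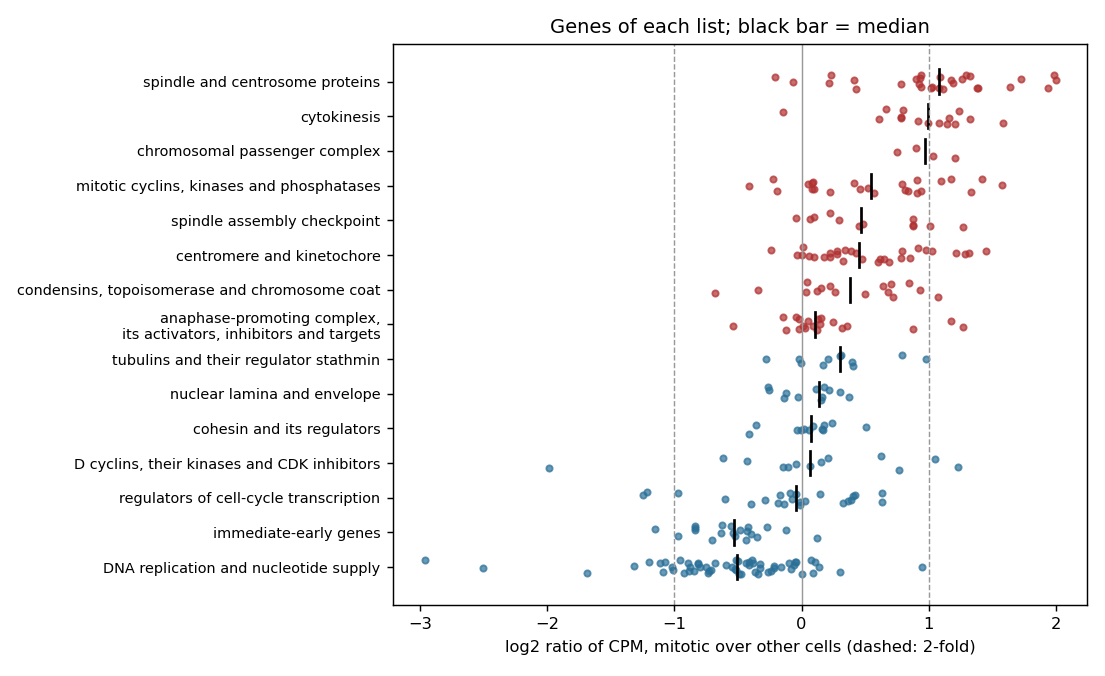
Each point is 1 gene that passed the 10 CPM filter, placed by its log2 ratio of CPM in mitotic over other cells (horizontal axis) and by list (rows; height within a row has no meaning). Black bars are medians, dashed lines 2-fold; red lists are the 8 mitotic ones, with medians from 0.11 to 1.08, and the replication list at the bottom has a median of -0.51.

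Many G2/M genes carry a CHR element, a short promoter motif bound by the MuvB complexes that repress them in G1 and activate them in G2, often near CCAAT boxes bound by NF-Y. Promoter windows were taken from RefSeq, build GRCm38.p6, from 250 bases before to 50 bases after each start. Motifs were searched as exact letters on both strands: TTTGAA for CHR, TAAACA for the forkhead core that FoxM1 binds, GGCGGGAA for E2F, and the CCAAT box. Of the 64 genes at least 2-fold higher, 55 had a window, and some had several, 63 in all. TTTGAA stood in 37 of these windows (58.7%), in 12.1% of the windows of all genes compared and in 17.9% of all 32851 windows. CCAAT stood in 81.0% against 38.0% and 37.4%, and both motifs in 52.4% against 5.16% and 6.95%. CCAAT was also more frequent than in all genes compared in the windows of the replication list (52.6%) and of the 33 lower genes (52.8%), while TTTGAA stood in 14.0% and 11.1% of these. TTTGAA and CCAAT overlapped in 2 of the 63 windows. TAAACA stood in 12.7% against 8.65% and 13.4%. GGCGGGAA stood in 1.59% against 4.32% and 2.19%, and in 17.5% of the windows of the replication list. Of the rule genes, 9 had a window, and 7 of the 9 held TTTGAA while all 9 held CCAAT. A match of letters is a description and does not show that a factor is bound.

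The next windows show how these letters lie in the 120 bases before the start of 7 genes, the first 5 with TTTGAA or its reverse complement TTCAAA, then Ccnb1 with CCAAT alone, and last Uhrf1, a replication gene with the E2F letters, whose level was lower in the mitotic cells, at 32.9 against 75.5 CPM (-1.20). They were chosen after their sequences were seen. They are written 5′ to 3′ on the gene's strand, with the motif letters in capitals.
Cdc20, chr4:118437344-118437463, minus strand: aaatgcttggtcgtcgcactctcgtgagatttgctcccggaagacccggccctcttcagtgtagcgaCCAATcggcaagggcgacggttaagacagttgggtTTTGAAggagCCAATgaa
Ube2c, chr2:164769809-164769928, plus strand: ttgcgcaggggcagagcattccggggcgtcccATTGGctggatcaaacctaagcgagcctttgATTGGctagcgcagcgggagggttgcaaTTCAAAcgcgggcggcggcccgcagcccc
Fam83d, chr2:158767979-158768098, plus strand: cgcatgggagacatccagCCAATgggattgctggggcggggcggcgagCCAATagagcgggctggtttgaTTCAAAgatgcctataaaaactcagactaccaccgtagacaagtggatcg
Prc1, chr7:80294356-80294475, plus strand: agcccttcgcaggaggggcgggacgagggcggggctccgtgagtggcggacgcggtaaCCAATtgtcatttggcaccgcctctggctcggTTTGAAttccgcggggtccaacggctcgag
Ccnf, chr17:24251410-24251529, minus strand: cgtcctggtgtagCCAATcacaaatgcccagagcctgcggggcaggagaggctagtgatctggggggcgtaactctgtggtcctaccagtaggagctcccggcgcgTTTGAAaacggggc
Ccnb1, chr13:100786487-100786606, minus strand: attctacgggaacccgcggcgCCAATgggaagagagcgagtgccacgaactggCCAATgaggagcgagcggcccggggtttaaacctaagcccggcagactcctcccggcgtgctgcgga
Uhrf1, chr17:56303217-56303336, plus strand: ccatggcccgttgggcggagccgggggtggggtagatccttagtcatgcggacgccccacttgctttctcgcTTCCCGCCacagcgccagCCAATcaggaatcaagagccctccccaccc

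In Cdc20 the TTTGAA begins 18 bases before the start and has a CCAAT box on either side. In Ube2c, Fam83d and Prc1 the CHR letters begin 29, 50 and 30 bases before the start of the window shown, each downstream of a CCAAT box. Prc1 and Uhrf1 each have another start with its own window. From that start of Prc1 the same letters begin 5 bases before, and that window of Uhrf1 holds no E2F letters. Nusap1 and Sapcd2, among the genes with the highest ratios, held neither set of letters in their windows.

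Replication genes formed the other side of the comparison. Of 58 genes for DNA replication and nucleotide supply that passed the filter, 10 were at least 2-fold lower in the mitotic cells, 0 at least 2-fold higher, and 51 had a ratio below 0. The median log2 ratio was -0.51. Ccne2, or cyclin E2, which starts S phase with Cdk2, had 3.88 CPM in the mitotic cells (49 UMIs) and 30.2 CPM in the others, a log2 ratio of -2.96 (-3.40 to -2.56), the lowest of the 8226 genes. Cdc6, which loads the replicative helicase, had 6.97 against 39.6 CPM (-2.51), and Ccne1 had 12.7 against 40.9 CPM (-1.69). Chaf1b, a histone chaperone at the fork, had 19.8 against 49.3 CPM (-1.32). The helicase subunit gene Mcm6 had 35.2 against 74.8 CPM (-1.09) and Pcna, the sliding clamp, 85.7 against 163 CPM (-0.93). Orc6, Rrm2 and Dut, the most abundant of the list, had ratios of -0.80, -0.32 and -0.22. Dbf4, the activator of the kinase Cdc7, was the highest of the list with 201 against 105 CPM (0.94).

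Cdc6 was detected in 3.98% of the mitotic cells and 17.5% of the others, or 1.79% and 11.4% after thinning to 3000 UMIs. Ccne2 was detected in 2.11% against 13.6%, or 1.21% against 8.89%. For these 2 genes, cells with M of 0 lay near the other cells and not near the mitotic cells. Their shares were 15.7% for Cdc6 and 11.6% for Ccne2. By the median of the whole replication list they lay near the mitotic cells instead. This median was 34.9 UMIs per 10000 in the mitotic cells and 35.04 in the cells with M of 0. It was 47.1 in the others and 83.1 in the 10% of cells highest in that list. In all, 7 cells were among both the mitotic cells and this replication group of 2136 cells, 0.328% of either. Groups of 10% of the cells chosen without regard to each other would share about 10%. The replication group was shallower, with a median of 4287.5 UMIs against 5693, and both scores are shares of a cell's total UMIs. The part of these in the overlap was not tested. The median M of the replication group was 5.19.

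Replication-dependent histone genes, taken by name pattern after values had been seen, also had lower levels. Of 21 that passed the filter, 1 was at least 2-fold lower, H1f1 with 32.5 against 76.0 CPM (-1.23), and the median log2 ratio was -0.63. Per cell they gave a median of 4.83 UMIs per 10000 in the mitotic cells and 11.3 in the others. Their messages mostly lack poly-A tails and their copies are near-identical, so poly-A capture and read assignment limit these values. Slbp, which binds histone messages and is destroyed at the end of S phase, had 41.1 against 89.1 CPM (-1.12).

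Of 13 genes for D cyclins, their kinases and CDK inhibitors, 2 were at least 2-fold higher and 1 was at least 2-fold lower. Cdkn1a, or p21, a p53 target that stops Cdk2, had 4.04 CPM in the mitotic cells, 3.96-fold lower than in the others (-1.98), and it was detected in 1.69% of the mitotic cells and 6.90% of the others. Cdkn2d and Cdkn3 were at least 2-fold higher, with 52.7 against 22.5 CPM (1.23) and 79.3 against 38.4 CPM (1.05). Cdkn2a, Ccnd1 and Cdk4, the most abundant of the list, had ratios of -0.14, -0.04 and 0.07. Among 23 regulators of cell-cycle transcription, 0 were at least 2-fold higher and 2 were at least 2-fold lower, E2f2 with 6.89 against 16.4 CPM (-1.25) and E2f1 with 6.26 against 14.5 CPM (-1.21). Foxm1, the forkhead activator of G2/M genes, had 28.5 against 18.4 CPM (0.63), and Lin9, a MuvB subunit, 51.3 against 38.4 CPM (0.42). Mybl2, its partner B-Myb, had 25.3 against 28.8 CPM (-0.19). Rbbp4, Tfdp1 and E2f4, the most abundant of the list, had ratios of -0.14, -0.05 and 0.14.

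Immediate-early genes, which answer stimuli and handling within minutes, had a median log2 ratio of -0.53 over 20 genes, with 1 at least 2-fold lower and 19 below 0. That gene was Fos, with 6.81 against 15.1 CPM (-1.15), but -0.40 within class A and -0.83 within class B, both short of 2-fold. The median of the list was -0.64 within class A, where 1 gene, Btg2, was at least 2-fold lower at -1.02, and -0.31 within class B, where 0 were. Jund, Junb and Ier3, the most abundant, had ratios of 0.12, -0.63 and -0.84. The part of class and of handling in these values was not tested.

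The lists were then followed along the whole range of M, with cells ranked by M in 20 equal parts. Parts 19 and 20 are the mitotic cells, and parts 1 and 2 hold only cells with M of 0. Spindle genes in sum had 642 CPM in part 2, 1311 CPM in part 10, 2996 CPM in part 18 and 3915 CPM in part 20. Cytokinesis, passenger and kinetochore genes were also highest in part 20, at 2181, 853 and 2328 CPM. Class mix and depth also differ between the parts. Replication genes were highest in part 6, at 5782 CPM, and had 3784 CPM in part 18 and 3588 CPM in part 20. Histone genes were highest in part 8, at 1968 CPM, and had 1030 CPM in part 20. Both lists were also low at M of 0, with 3764 and 799 CPM in part 2.

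**Figure D4:**
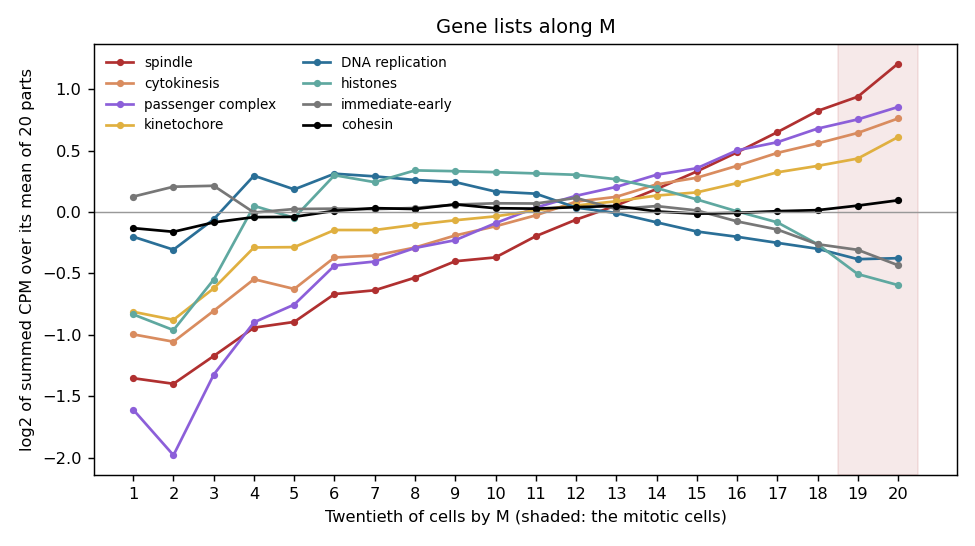
The log2 of each list's summed CPM over its mean of the 20 parts (vertical axis), for cells ranked by M in 20 equal parts (horizontal axis); the shaded parts 19 and 20 are the mitotic cells. Spindle, cytokinesis, passenger and kinetochore genes are highest in part 20, and replication and histone genes are highest in parts 6 and 8.

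Genes differed in where along M they levelled off. Psrc1 had 30.5 CPM in part 18, 33.4 in part 19 and 47.1 in part 20, and Aspm, a spindle-pole protein in no list, had 108, 129 and 163 CPM. Sapcd2, which orients the spindle, had 28.1, 37.0 and 46.1 CPM, and Fzr1 had 40.0, 52.2 and 60.6 CPM. Mad2l1 in contrast had 86.5, 81.4 and 86.7 CPM, Birc5 had 365, 372 and 383 CPM, and the lamin gene Lmnb1 had 141, 153 and 140 CPM. On the low side, Cdc6 had 13.5, 8.31 and 5.54 CPM. Ccnd1, or cyclin D1, was highest in part 17 at 458 CPM and lowest in part 20 at 345 CPM. The class mix described further on moved along the same parts, with class A cells at 41.7%, 43.0% and 56.2% of parts 18, 19 and 20 and class B cells at 41.8%, 42.3% and 27.6%. Its part in these levels was not tested. The parts were made from M, so the order describes the score and not time.

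The pool held cells of unlike kinds, and the mitotic cells were set against them class by class. From earlier results of these data, 5 genes (Pde10a, Arhgap15, Plcb1, Galnt18 and Ceacam1) mark clone-like class A, and 6 genes (Mal, Hs6st2, Ccbe1, Ctse, S100a7a and Krt7) mark clone-like class B. A cell with at least 2 UMIs of these genes was put in A where at least 75% of them were A genes, in B where at most 25% were, and otherwise in neither. Class A held 7348 cells, of which 1059 were mitotic cells, 14.4% (13.6 to 15.2). Class B held 10580 cells, of which 747 were mitotic cells, 7.06% (6.58 to 7.57). Of the 3433 cells in neither class, 9.61% were mitotic cells. Class A thus made up 49.6% of the mitotic cells and 32.7% of the others. Within 10 points of a class limit lay 1394 cells (6.53%), and the classes are not clone labels.

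Depth moved with these shares. Over 10 equal groups by UMIs per cell, the share of mitotic cells was 5.42% in the shallowest group, 3.75% in group 3, 18.7% in group 7 and 9.93% in the deepest. In class A it was highest in group 7, at 32.4% (28.9 to 36.1), and in class B in group 8, at 15.5% (13.5 to 17.6). In group 6 the share was 25.7% in class A and 3.78% in class B, while in group 9 it was 13.7% and 14.6% and the intervals overlapped. The size of the gap between the classes thus differed between depths, and it was not present in group 1, with 5.11% and 5.30%. M after thinning every cell to 2000 UMIs put 17.1% of class A and 10.3% of class B in the top group, which then held 2824 cells because of ties.

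The ratios of mitotic over other cells were also taken within each class. In class A, 60 genes (0.729%) were at least 2-fold higher and 62 (0.754%) at least 2-fold lower. In class B, 57 (0.693%) were higher and 55 (0.669%) lower. These counts used the 10 CPM minimum over all cells, which also passes genes that are scarce in 1 class. With the minimum taken within the class, 59 were higher and 42 lower in A, and 55 were higher and 40 lower in B. With the minimum over all cells, 50 genes were at least 2-fold higher in both classes. All 50 were among the 64 above, and 34 of them were in the mitotic lists. Likewise 21 of the 33 lower genes were at least 2-fold lower in both. Of all 8226 genes, 42 had ratios over 2-fold apart between the classes, 4 of them with 0 UMIs in the mitotic cells of a class. Of the 42, 0 were among the 150 mitotic-list and 58 replication genes compared. At a rate of 42 in 8226, few would be found in lists of this size, so the 0 does not set them apart. Fam83d had log2 ratios of 1.87 in A and 1.91 in B, Nusap1 1.89 and 1.78, Aspm 1.86 and 2.07, Ccne2 -3.12 and -2.83, and Cdkn1a -1.74, from 5 UMIs in class A mitotic cells, and -1.60. Knstrn, a spindle adaptor, had 1.13 in A and 0.69 in B, and Cdc25b 1.15 and 1.47.

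The histone genes had unlike values in the 2 classes. Their median log2 ratio was -0.64 in class A, with 1 of 21 genes at least 2-fold lower, and -1.12 in class B, with 15 of 21 at least 2-fold lower. H1f5 had -0.70 in A and -1.36 in B, and H1f1 -1.13 and -1.80. The summed level moved with depth. The mitotic cells of each class were put in 3 groups of equal size by depth. In class A these had, from shallowest to deepest, 2036, 1394 and 1097 CPM, against 2179 CPM in other A cells. In class B these values were 736, 597 and 544 CPM, against 1292 CPM. The part of depth in the difference between classes was not tested.

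The rule genes themselves made up M in unequal parts in the 2 classes. Ube2c gave 23.0% of the rule-gene UMIs of class A mitotic cells and 18.5% of those of class B. Cenpf gave 16.5% in A and 21.6% in B, and Cenpe gave 16.6% and 21.0%. In CPM, Cenpf had 752 in class A mitotic cells and 923 in class B ones, and Cenpe had 755 and 894. Class B mitotic cells were deeper, with a median of 6397 UMIs against 5410. The separate kinetochore list, which leaves the rule genes out, had median log2 ratios of 0.46 in A and 0.35 in B.

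**Figure D5:**
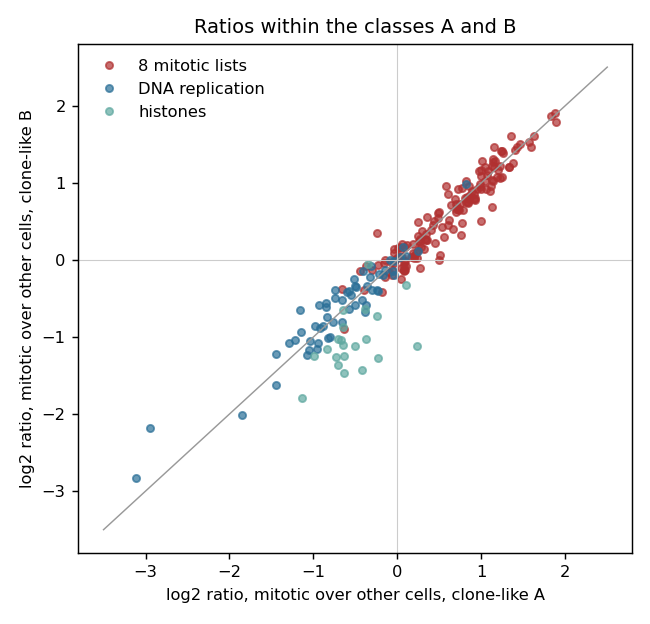
Each point is 1 gene, with its log2 ratio of mitotic over other cells in clone-like class A (horizontal axis) and class B (vertical axis); the line marks equal ratios. Points of the 8 mitotic lists and of the replication list lie along the line, and most histone genes lie below it, with medians of -0.64 in A and -1.12 in B.

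The label of the cells was set against markers of other kinds of cells. The 5 defining markers Cdc20, Ccnb1, Plk1, Aurka and Cenpa are rule genes. Their presence follows from the choice of the cells and is no check of the label. Keratins Krt8, Krt18 and Krt19, which mark ductal epithelium, had 1019, 1660 and 885 CPM in the mitotic cells and 1252, 2174 and 1159 CPM in the others. The epithelial list had a median log2 ratio of -0.39, but -0.27 in class A and -0.13 in class B, from Krt7 at -0.60 to Epcam at 0.14. Within the classes Epcam had -0.31 in A and -0.35 in B. Acinar markers summed to 9.11 against 9.19 CPM, mostly Prss2 with 87 UMIs and Cela1 with 28 UMIs in the mitotic cells, and 6 of 8, Ctrb1 among them, were at 0 there. Endocrine markers, with 5 of 6 at 0, had 2 UMIs in the mitotic cells, both of Ins2, and 7 in the others, and Chga and Ppy were at 0 in the mitotic cells. The mitotic cells' immune markers summed to 2.38 against 2.21 CPM with 3 of 7 at 0, led by Coro1a, Cd68 and Lyz2 with 17, 9 and 2 UMIs in the mitotic cells. Their fibroblast markers summed to 2.14 against 1.33 CPM with 3 of 6 at 0, and Pdgfra, Col3a1 and Col1a1 had 14, 10 and 3 UMIs. Endothelial markers summed to 24.7 against 19.4 CPM, nearly all from Egfl7 at 23.6 against 18.6 CPM. Within the classes Egfl7 had log2 ratios of 0.08 in A and -0.18 in B. Cdh5 and Pecam1 were under 1 CPM and Kdr was at 0. Erythroid markers summed to 0.871 against 2.38 CPM, with 2 of 5 at 0 and 8, 2 and 1 UMIs of Hba-a1, Alas2 and Hba-a2.

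Mitochondrial genes gave a median of 2.83% of UMIs in the mitotic cells and 2.42% in the others, but 3.17% and 3.21% within class A and 1.87% and 1.92% within class B. Ribosomal protein genes gave 18.4% and 18.7%. Scrublet, which compares barcodes with simulated sums of 2 cells, marked 34 mitotic cells as doublets, 1.59% (1.10 to 2.22), and 740 others, 3.85%. Without the marked barcodes, 65 genes were at least 2-fold higher and 37 at least 2-fold lower.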

How the data were processed

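The matrix holds raw counts of UMIs per gene and cell barcode as deposited by the authors, with no normalization. The submitters' processing notes name Cell Ranger 8.0.1 and the build GRCm39. The annotation, the treatment of intronic reads and the calling of cells are not given in the sources used here. Members, gene lists, motifs and classes were chosen with earlier results of these data known. Scripts (Python 3.11.15, scipy 1.17.1) filtered the barcodes, ranked cells by M, summed counts per group and gave CPM ratios over genes with at least 10 CPM in all cells together. Doublets called by Scrublet (scanpy 1.11.5; rate set to 0.08) were kept, as the rule does not remove them, and dropped in an alternative. The steps were tested on simulated data. Named genes were the rule genes, the 15 highest and 10 lowest ratios, and in each list the 3 most abundant genes with its highest and lowest ratio. Other genes were named after their values were seen. Alternatives changed the cell filter, the limit and make-up of M, the scaling, the comparison cells and the CPM minimum.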

Additional observations from a re-analysis of the deposited data

Results flagged for a closer look

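Of the 817 barcodes removed by the cell filter, 97 had M at or above the lowest M of a mitotic cell, 11.9% (9.73 to 14.3). These barcodes entered no comparison, and no control barcodes were at hand. The share lies near the 10% that the rule fixes among the cells kept. What these barcodes hold was not tested.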

How the results depend on the processing

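No paired analysis was possible because there is 1 library. The 10 rule genes were each at least 2-fold higher when left out under the 7 alternatives run for them: the loose and strict cell filters, doublets removed, the top 5% and top 20%, equal weights and separate UMIs. This reading was not run for the others.

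Against counts of 64 higher and 33 lower genes, 41 higher mitotic-list genes and 10 lower replication genes, and shares of 14.4% of class A and 7.06% of class B, these values moved, counts by over 1.5 times and shares out of their 95% interval. Counts that moved by less ran from 53 to 88 higher, 23 to 46 lower, 31 to 59 mitotic-list and 7 to 13 replication genes. The strict filter (4000 UMIs, 2000 genes, 10% mitochondrial) gave shares of 15.8% and 6.35%. The top 5% gave 65 lower genes and shares of 8.17% and 2.79%. The top 20% gave 20 lower genes and shares of 25.6% and 15.9%. These shares change with the limit by construction. M thinned to 2000 UMIs gave 17 lower genes, 5 of them replication genes, and shares of 17.1% and 10.3%. Equal weights gave 6.33% of class B. Separate UMIs for choice and reading gave 6 lower replication genes. Weighting the other cells to the same depth and class gave 33 higher genes and 20 mitotic-list genes. Mean UMIs per cell gave 104 higher, 19 lower and 5 replication genes, and raised the median over all genes by 0.14 on the log2 scale. With the lower 50% of cells by M as the comparison there were 128 higher, 71 lower, 77 mitotic-list and 18 replication genes. A minimum of 50 CPM gave 19 higher genes, all 19 mitotic-list genes, 9 lower and 4 replication genes, and a minimum of 1 CPM gave 98 higher and 140 lower genes, since fewer or more genes were then compared. For the other alternatives the cause was not tested.

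Of 375 values of the 25 genes with the highest and lowest ratios over the 15 settings that can change a ratio (not the CPM minimums), 231 stayed within the counting interval, 144 moved past it and 0 changed sign. In 2 they were short of 2-fold: Gdf15 at -0.99 with equal weights and Sprr1a at -0.59 in class A alone. The largest move was that of Psrc1, from 1.99 to 3.73 with the lower 50% as the comparison. The 3 settings by class were chosen after seeing the data. Depth limits the choice of single cells, since M rests on a median of 25 rule-gene UMIs in a mitotic cell.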

Other observations

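Of the 64 genes at least 2-fold higher in the mitotic cells, 21 were in none of the lists. Aspm led them with 146 against 37.4 CPM (log2 ratio 1.96), followed by Sapcd2 with 41.4 against 10.9 CPM (1.92). Miip had 36.9 against 12.9 CPM (1.51), Prr11 72.5 against 25.7 CPM (2.82-fold), Tnfaip8l1 51.7 against 18.9 CPM (1.45) and Kpna2, an importin, 58.0 against 21.8 CPM (1.41). Others with known places in division were G2e3, a G2/M ubiquitin ligase, at 1.34, Gas2l3, which links actin and microtubules, at 1.30, and Reep4, which clears endoplasmic reticulum from metaphase chromosomes, at 1.26. These ratios were also past 2-fold in each class: Kpna2 had 1.41 in A and 1.30 in B, and Gas2l3 had 1.07 and 1.44. Stc1, a secreted hormone, and Wnt4, a signalling ligand, were different. Stc1 had 1.09 in all cells but 0.61 in class A and 0.08 in class B, and Wnt4 had 1.10 in all cells but 0.71 and -0.02, from 7 and 8 UMIs in class B mitotic cells.

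Of the 33 genes at least 2-fold lower, 19 were in no list but the histone pattern, which holds 1 of them, H1f1. Wdhd1, a replisome protein named after its value was seen, had 9.19 against 22.9 CPM (-1.32), and the mismatch repair gene Msh6, named in the same way, had 24.7 against 50.4 CPM (-1.03). Slfn9 had 22.2 against 76.4 CPM (-1.78), with -1.78 in A and -1.94 in B. Wdr76 had 13.1 against 33.7 CPM (-1.37) and Ulbp1, a ligand of the immune receptor NKG2D, 12.6 against 31.7 CPM (-1.33). Gdf15, a stress-induced secreted factor, had 25.3 against 71.5 CPM, 2.82-fold lower, with -1.93 in A and -1.05 in B. Sprr1a, a squamous envelope protein, had 28.5 against 76.1 CPM (-1.42), with -0.59 in A and -1.19 in B.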
